A study of Mus musculus with 6 samples.

Results

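The serpins are a superfamily of proteins named for serine protease inhibition, and their RNA was compared here between livers with and without hepatocyte Keap1. Members were all genes whose only symbol in the array's annotation starts with Serpin, with every probe set kept. They numbered 56 probe sets of 40 genes, out of 45101 probe sets and 18194 genes with a symbol of their own. Of these, 33 probe sets of 26 genes were bright enough to test, and 14 genes were represented only by probe sets below the filter.

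Livers of 3 conditional Keap1 knockout mice, Alb-Cre:Keap1(flox/-), and of 3 genetic controls, Alb-Cre:Keap1(flox/+), were measured on single-colour Affymetrix arrays, with 1 mouse on each. All were male, aged 9 weeks and had been given the vehicle alone, which held 10% DMSO, 10% Cremophor-EL and 80% PBS. Both groups carried Cre under the albumin promoter, which is active in hepatocytes, together with a floxed allele. The knockouts had a null allele opposite it, which is present in every cell whether or not Cre acts there, and the controls had a wild-type one. The design asks which hepatic transcripts depend on KEAP1, the protein that targets the transcription factor NRF2 for degradation.

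A typical serpin offers its protease a flexible loop as bait. When the loop is cut the serpin changes shape and traps the enzyme in a covalent complex, so that each molecule works once. The family is divided into lettered clades. Clade A holds mainly secreted plasma proteins made by the liver, including hormone carriers that inhibit nothing. Clade B holds mainly intracellular inhibitors that protect cells from their own or from leukocyte proteases, and the remaining clades include the plasma regulators of clotting, fibrinolysis and complement.

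The Keap1 probe set with the brighter signal read 326.2, 151.4 and 213.6 in knockouts 3, 4 and 5 and 785.9, 843.1 and 699.8 in controls 1, 2 and 3, and it fell, with a log2 difference of -1.74 (adjusted p = 0.0103 by limma). The other Keap1 probe set read 336.3, 445.8 and 206.3 against 476.7, 564.2 and 540.9, without overlap, and did not pass (-0.71, adjusted p = 0.223). Of 9 reference targets of NRF2 that were tested, 7 rose and 0 fell. Trimmed means were 500.0 on every array, so values had been scaled to a shared level. Correlations of log2 signal across probe sets were 0.967 to 0.973 within groups and 0.956 to 0.962 between them. The hepatocyte marker albumin read 22568.7 to 28702.1 over the 6 arrays. The 17 hepatocyte markers tested summed to 392614 to 432521 in the knockouts and to 347435 to 406593 in the controls, with a median log2 difference of 0.15 and 0 past the threshold (4 had an unadjusted p under 0.05).

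Among the serpins the knockout livers showed a large increase of 1 clade B gene and a decrease of 1 clade A gene. By brightest probe set, Serpinb1a, an inhibitor of neutrophil elastase, was 6.34-fold higher, and Serpina4-ps1, a pseudogene related to kallistatin, was 3.64-fold lower. Their other probe sets gave 4.13-fold for Serpinb1a and 2.48-fold and 3.01-fold for Serpina4-ps1. Both genes were singled out with this outcome known. By probe set, 2 of 33 rose, 3 fell and 28 did not pass the limma threshold of 0.05, adjusted over the whole set of 27022 tested. The 5 that passed are 15.2% of the members tested, against 1.52% of all probe sets. All 5 belong to Serpinb1a and Serpina4-ps1, the 2 genes named when the family was chosen. The share therefore does not describe the other members. Of all probe sets 0.803% rose and 0.714% fell. By gene, each represented by its brightest probe set, 1 of 26 rose, 1 fell and 24 did not pass, against 1.85% of all 13027 genes.

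Values of the serpins, with those that passed included, are set beside those of all features, with no test between them. Groups did not overlap for 13 of 33 serpin probe sets (39.4%), 7 of them higher and 6 lower in the knockouts, against 20.5% of all probe sets (11.4% lower). At least 2-fold differences were found in 5 of 26 genes (19.2%), against 2.23% of all genes. The median size of the difference was 0.36 log2 units over the 26 serpin genes and 0.17 over all genes. The median signed difference was 0.07, with 14 genes above and 12 below the controls, and it was -0.06 after quantile normalization, -0.01 after cyclic loess and -0.10 when arrays were scaled on the added control transcripts. Under that last scaling the median of all probe sets was itself -0.20, against -0.04 in the reported fit. The serpins as a family therefore had no direction that held across scalings.

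By clade, the 11 clade A genes tested were divided, with 4 above and 7 below the controls and a median log2 difference of -0.05. This median was 0.04 after median centring, with 6 above and 5 below. It was -0.15 after quantile normalization and -0.14 after cyclic loess. When arrays were scaled on the added control transcripts it was -0.22, where the median of all probe sets was itself -0.20. Groups did not overlap for 7 of these 11 (63.6%), 3 higher and 4 lower, against 21.3% of all genes (10.3% higher and 10.9% lower), and 4 differed at least 2-fold, all of them lower. Of the 8 clade B genes tested, 6 were above and 2 below with a median of 0.25. These counts were the same after quantile normalization, median centring and cyclic loess, with medians of 0.33, 0.35 and 0.34. Scaling on the added control transcripts gave 4 above and 4 below with a median of 0.09, against a median of -0.20 over all probe sets. Groups did not overlap for 3 of the 8 (37.5%), all higher. The 7 genes tested in clades C to I lay between -0.31 and 0.39, and 0 of them passed the limma test or had an unadjusted p under 0.05. The counts include Serpina4-ps1 in clade A and Serpinb1a in clade B, which were named with their directions when the family was chosen. They therefore do not describe the other members of these clades alone. No test compared the clades with each other.

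**Figure D1:**
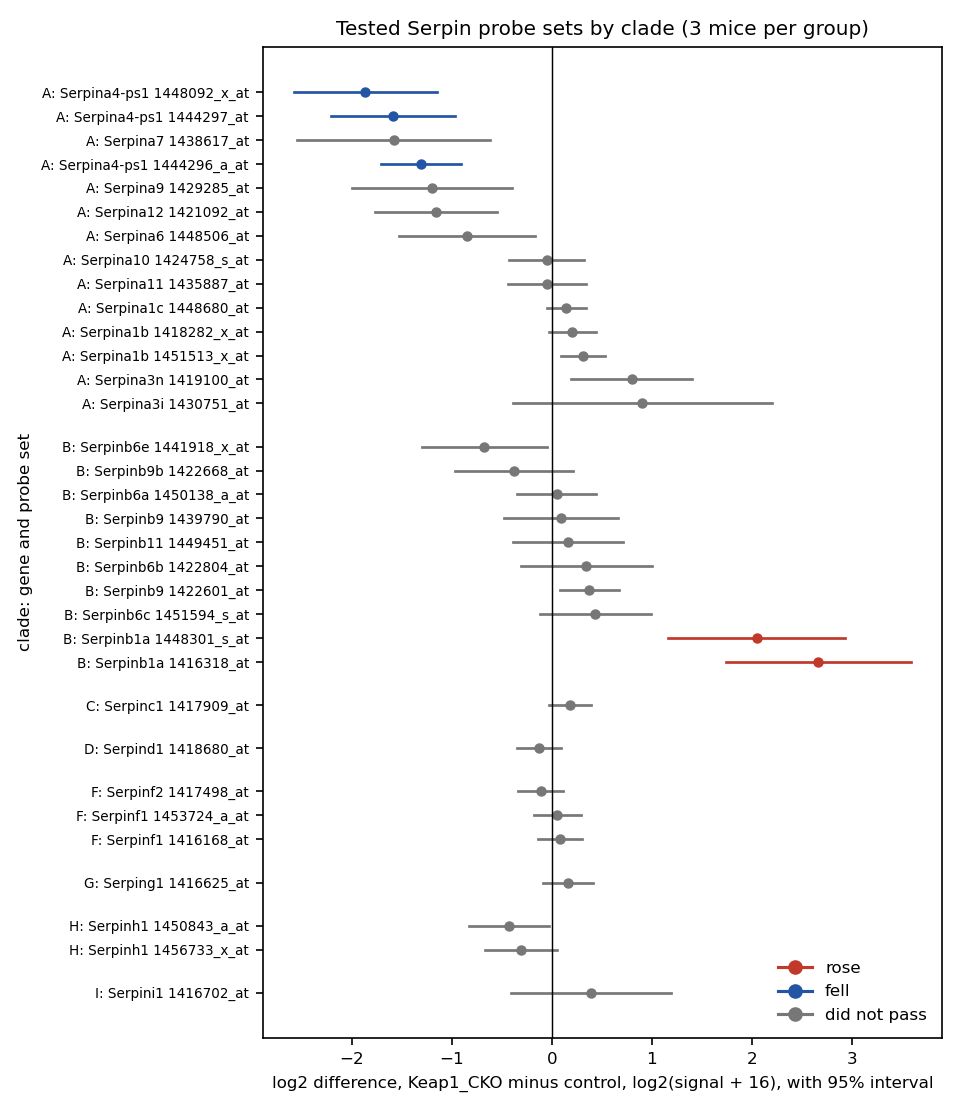
Log2 difference, Keap1_CKO minus control, with its 95% interval from the limma fit for each of the 33 tested Serpin probe sets, grouped by clade letter on the vertical axis (3 mice per group). Both Serpinb1a probe sets lie on the far right at 2.05 and 2.66 and the 3 of Serpina4-ps1 on the left between -1.86 and -1.31, while the probe sets of clades C to I lie between -0.43 and 0.39.

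Serpinb1a is the mouse counterpart of the leukocyte elastase inhibitor, a cytoplasmic serpin that blocks neutrophil elastase, cathepsin G and proteinase 3. Its brighter probe set, 1416318_at, read 1069.7, 2733 and 1257.7 in knockouts 3, 4 and 5, and 218.8, 406.7 and 134.4 in controls 1, 2 and 3. Every knockout was above every control, and knockout 4 stood highest. The means were 1687 ± 911 and 253 ± 139 (SD, n = 3 each), for a log2 difference of 2.66 (SE 0.41) and a 95% interval of 1.74 to 3.59 (limma adjusted p = 0.0175).

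The other Serpinb1a probe set, 1448301_s_at, whose suffix marks probes that can match several transcripts, gave the same order. It read 182.8, 616.1 and 226.1 in the knockouts and 62.7, 61.7 and 54.5 in the controls. The controls lay close together and knockout 4 was again the highest. This gave a log2 difference of 2.05 (SE 0.39, limma adjusted p = 0.0412). That call was lost without knockout 5 (adjusted p = 0.0696), control 1 (0.110), control 2 (0.111) or control 3 (0.112), with no filter (0.0856), an offset of 64 (0.0575) or cyclic loess (0.0532), and without a variance trend (0.115). For the brighter probe set the call was lost without control 1 (adjusted p = 0.0603) or control 3 (0.0501), without the trend (0.0850) and with a robust fit (0.0562), while the difference stayed between 2.26 and 3.05 whichever array was left out.

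Serpinb1a is abundant in neutrophils, so their markers were read beside it. Of 15 listed neutrophil markers 10 were tested, 4 were above and 6 below the controls, and 0 passed (1 had an unadjusted p under 0.05), with a median of -0.12. Their summed signal was 3299 to 28820 in the knockouts and 1718 to 4704 in the controls, and without Lcn2, which hepatocytes also make, it was 1066 to 1689 and 1372 to 2632. Of the 10 markers, knockouts 3, 4 and 5 were the lowest of the 6 arrays for 1, 4 and 2 and the highest for 3, 0 and 2. Controls 1, 2 and 3 were the lowest for 2, 1 and 0 and the highest for 1, 2 and 2. The part of neutrophils in the Serpinb1a values was not tested. In whole liver, a change in the number of cells of a type and a change in RNA per cell cannot be told apart.

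Of the proteases that Serpinb1a blocks, elastase and proteinase 3 were tested, and neither passed. Cathepsin G was not tested. Elane read 173.7, 39.3 and 170.1 in the knockouts and 225.5, 65.6 and 236.4 in the controls, with overlapping groups and a log2 difference of -0.45 (limma adjusted p = 0.767). Prtn3, which encodes proteinase 3, read 103.4, 102.3 and 70.9 against 120.3, 103.5 and 92.4. Its log2 difference was -0.17 (limma adjusted p = 0.807), and its groups overlapped. The closely related Serpinb1b was too dim to test at 36.2, 9.6 and 45.4 against 6.1, 5.7 and 20.7.

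The remaining 7 clade B genes tested did not pass. Serpinb9, which inhibits granzyme B, read 698.6, 743.8 and 749.3 in the knockouts and 578.3, 485.8 and 622.3 in the controls. All knockouts were above all controls, but the log2 difference of 0.38 did not pass (95% interval 0.08 to 0.67, limma adjusted p = 0.235), and the gene's other tested probe set differed by 0.09. Serpinb6c, a mouse relative of the intracellular inhibitor PI-6, read 102.1, 118.6 and 114.9 against 76.4, 67.9 and 92.6, also without overlap (0.44, adjusted p = 0.463).

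Serpinb6e, another gene of that group, had the largest difference below the controls in clade B. It read 212.8, 180.5 and 411.9 in the knockouts and 460.7, 345.3 and 439.5 in the controls. Knockout 5 lay within the control range, and the log2 difference of -0.68 did not pass (95% interval -1.30 to -0.05, limma adjusted p = 0.310). The other 4 genes, Serpinb9b, Serpinb6b, Serpinb6a and Serpinb11, lay between -0.38 and 0.34 with overlapping groups. Granzyme B, the target of Serpinb9, was itself near the filter level at 121.7, 103.6 and 99.2 against 73.2, 90.7 and 41.5 (0.60, adjusted p = 0.413).

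Serpina4-ps1 is annotated in RefSeq as a transcribed pseudogene, and is named after the gene for kallistatin, an inhibitor of tissue kallikrein. Its brightest probe set was 1448092_x_at, whose suffix marks probes that can match other transcripts. This probe set read 1005.9, 418.6 and 860.0 in knockouts 3, 4 and 5 and 2826.8, 1895.2 and 3431.5 in controls 1, 2 and 3. Every knockout was below every control, with knockout 4 the lowest. The means were 762 ± 306 and 2718 ± 774 (SD, n = 3 each), and the log2 difference was -1.86 with a standard error of 0.32 and a 95% interval of -2.57 to -1.15 (limma adjusted p = 0.0252).

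Both other probe sets of Serpina4-ps1 fell too. Probe set 1444296_a_at read 690.4, 506.5 and 865.3 in the knockouts and 1770.6, 1614 and 1680.2 in the controls (log2 difference -1.31 ± 0.18 SE, limma adjusted p = 0.00968). Probe set 1444297_at read 609.2, 241.8 and 392.4 against 1268.1, 1057.3 and 1280.5 (-1.59 ± 0.27 SE, adjusted p = 0.0268). None of the 3 probe sets had an overlap between the groups, and knockout 4 was lowest in each. The call of the brightest was lost without knockout 5 (adjusted p = 0.0515), control 1 (0.0870) or control 3 (0.0852), with no filter on dim probe sets (0.0506), without a variance trend (0.110) and with a robust fit (0.0626), whereas 1444296_a_at passed in all 6 fits that left out an array and, of the settings tried, lost its call only without the trend (0.0613). For 1444297_at the call was lost without knockout 5 (0.0720), control 1 (0.0930), control 2 (0.0662) or control 3 (0.0901), with no filter (0.0522) and without the trend (0.110).

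**Figure D2:**
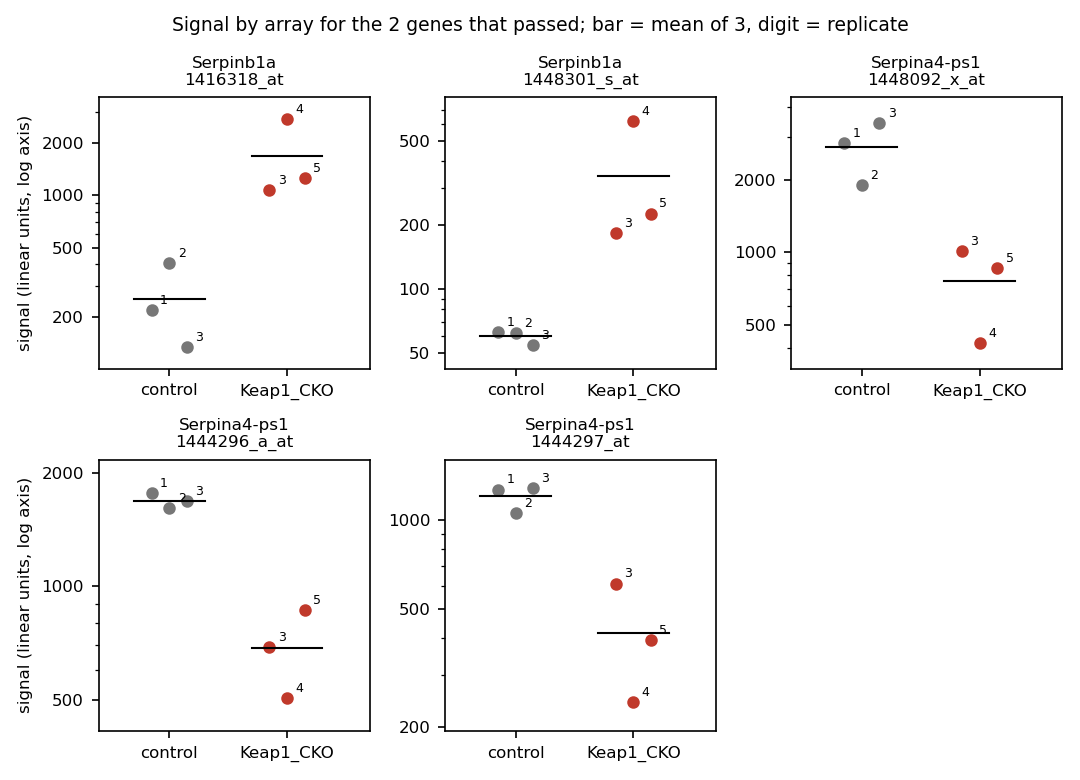
Signal of each array (linear units on a log axis) for the probe sets of Serpinb1a and Serpina4-ps1, with controls in grey, Keap1_CKO in red, digits for the replicate number and bars for the mean of 3. Serpinb1a was higher and Serpina4-ps1 lower in every knockout than in every control, and knockout 4 was the most distant from the controls in all 5 panels.

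On chromosome 12 Serpina4-ps1 lies in a large cluster of clade A genes. In the RefSeq gene order of assembly GRCm38.p6 it follows Serpina9 and Serpina12, with 0 other annotated genes between the first pair and 1 between the second. These neighbours were singled out after their values were seen, and their differences did not pass. Serpina12 encodes vaspin, a serpin first described in fat tissue, and Serpina9 encodes centerin, known from germinal centre B cells.

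Serpina12 read 1391.7, 1615.5 and 1748.8 in the knockouts and 4853.9, 2109.3 and 4307.5 in the controls. The groups did not overlap, and control 2 stood nearest to the knockouts. This was a log2 difference of -1.15 with a 95% interval of -1.76 to -0.55 (limma adjusted p = 0.0848). It passed without control 2 (-1.53, adjusted p = 0.00219) and when arrays were scaled on the added control transcripts (-1.32, adjusted p = 0.0254, where the median of all probe sets was itself -0.20). The gene's other probe set was too dim to test.

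Serpina9 gave low signals, 68.7, 35.4 and 106.1 against 162, 130.3 and 230.1, with no overlap. Serpina9 differed by a log2 value of -1.20 (SE 0.36, limma adjusted p = 0.166). The genes on either side of the 3 differed from them in being near 0 or too dim. Serpina11, which precedes Serpina9, gave -0.05 (adjusted p = 0.925) and 0.04 after median centring, and Serpina5, the protein C inhibitor that follows Serpina4-ps1, was under the filter at 50, 125.7 and 13.5 against 8.1, 13.8 and 34.1. No test was made of position along the chromosome.

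**Figure D3:**
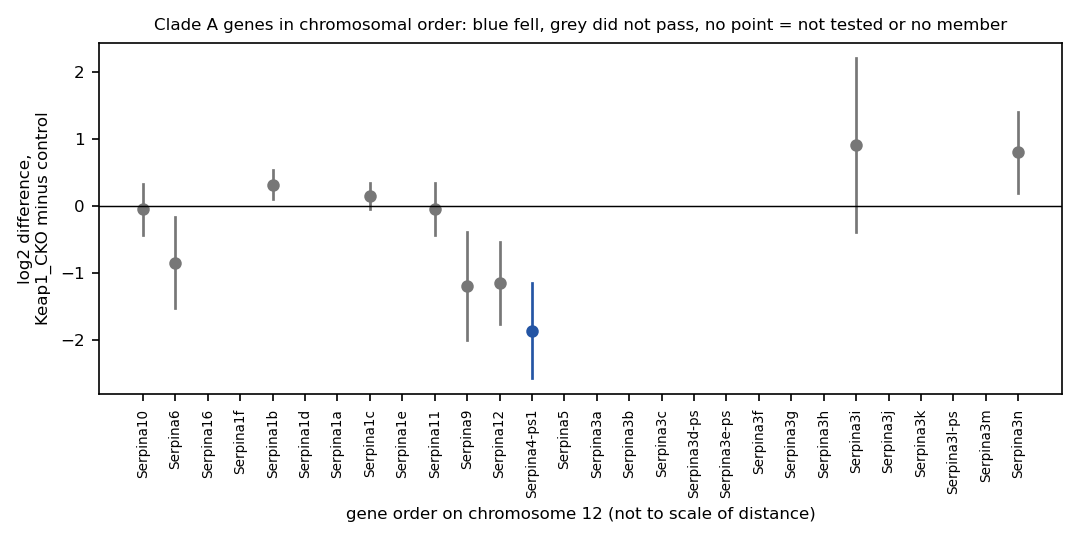
Log2 difference with its 95% interval for clade A genes in their order along chromosome 12, spaced evenly and not by distance, where names without a point were not tested or have no probe set of their own. Serpina9, Serpina12 and Serpina4-ps1 stand next to each other at -1.20, -1.15 and -1.86, and only Serpina4-ps1, in blue, passed.

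Both hormone carriers of clade A had lower means in the knockouts without passing the test, and were likewise singled out after their values were seen. Serpina7 encodes thyroxine-binding globulin. It read 399.4, 827.6 and 341.1 in the knockouts and 2789.6, 1382.5 and 840 in the controls. Knockout 4 came just under control 3, so the groups did not overlap, and the controls ranged widely. The log2 difference was -1.58 with a standard error of 0.43 and a 95% interval of -2.55 to -0.62 (limma adjusted p = 0.129).

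Serpina6 encodes corticosteroid-binding globulin, the plasma carrier of glucocorticoids. It read 2907.8, 4300.1 and 2436.4 in the knockouts and 6630.2, 7846.9 and 3428.6 in the controls. Knockout 4 was above control 3, so the groups overlapped. Serpina6 differed by a log2 value of -0.85 with a 95% interval of -1.52 to -0.17 (limma adjusted p = 0.237).

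Serpina3n, the acute-phase relative of human antichymotrypsin, lay on the other side. It read 17753.7, 7753.2 and 9174.8 in the knockouts and 7428.6, 5759.3 and 5604.6 in the controls. Every knockout was above every control, with knockout 3 far above the rest. The log2 difference was 0.80 with a 95% interval of 0.19 to 1.40 and did not pass (limma adjusted p = 0.216), and it was 0.44 without knockout 3 (adjusted p = 0.347).

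Another acute-phase gene, Lcn2, read 27130.2, 2233.4 and 2238.2 in the knockouts and 345.6, 2072 and 796.1 in the controls, so knockout 3 was the highest for both genes. The part of an acute-phase response in the Serpina3n values was not tested. Serpina3i, a neighbour from the same expanded mouse group, read 126.6, 49 and 248.7 against 48.8, 125.1 and 24.9. Its log2 difference was 0.90 with a 95% interval of -0.39 to 2.20 (limma adjusted p = 0.514), the largest positive value in clade A, and its groups overlapped.

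Serpina1 encodes alpha-1-antitrypsin, the plasma inhibitor of neutrophil elastase, of which the mouse has several near-identical copies. Probes of one copy can catch RNA of the others, so values for single copies are uncertain. Serpina1b probe set 1451513_x_at read 38255.1, 39356.2 and 33807.1 in the knockouts and 31803.4, 29228.6 and 28399.1 in the controls. All knockouts were above all controls. The log2 difference of 0.32 did not pass (95% interval 0.10 to 0.54, limma adjusted p = 0.180), and the gene's other probe set gave 0.21 (adjusted p = 0.404).

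Serpina1c read 33063.8, 32422.2 and 30758.4 against 29561.1, 30071.1 and 27365.7, again without overlap. Its difference was 0.15 (limma adjusted p = 0.486), -0.06 after quantile normalization and -0.02 when scaled on the added control transcripts. A probe set annotated to both Serpina1d and Serpina1a, and so no member, gave 0.29 (adjusted p = 0.227), and another annotated to Serpina1e, Serpina1c and Serpina1b gave -0.17 (adjusted p = 0.811). The highest signal on any array was 37656.5 to 45203.8, so the brightest of these probe sets lay near the top of the scale; whether signal was still proportional to RNA there was not tested.

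The likeness of the copies extends to their promoters. Below are 100 bases from before each annotated start in RefSeq, assembly GRCm38.p6, written 5′ to 3′ along the gene and lined up on a shared motif, with the letters GTTAAT, recognised by the liver factor HNF1, in capitals. They are shown because single-copy values cannot be separated.
Serpina1a (chr12:103863625-103863724, minus strand): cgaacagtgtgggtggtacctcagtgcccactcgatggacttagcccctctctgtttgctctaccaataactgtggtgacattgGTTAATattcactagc
Serpina1b (chr12:103738200-103738299, minus strand): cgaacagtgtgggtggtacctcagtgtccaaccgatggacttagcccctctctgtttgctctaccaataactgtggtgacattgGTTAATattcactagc
Serpina1c (chr12:103904962-103905061, minus strand): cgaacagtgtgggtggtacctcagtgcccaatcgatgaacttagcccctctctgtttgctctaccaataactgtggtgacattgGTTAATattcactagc
Serpina1d (chr12:103773634-103773733, minus strand): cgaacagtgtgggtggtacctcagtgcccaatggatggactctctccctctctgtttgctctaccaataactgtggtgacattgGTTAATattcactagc
Serpina1e (chr12:103956960-103957059, minus strand): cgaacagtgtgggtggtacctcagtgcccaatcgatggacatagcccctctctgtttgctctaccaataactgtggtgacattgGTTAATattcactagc
Over these 100 bases the 5 copies shared 93 to 98 identical positions in each of 10 pairs, and 90 positions were the same in all 5.

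The hormone carrier gene Serpina7 and Serpina12, a neighbour of Serpina4-ps1, are given in the same way for comparison. Their differences lay opposite to those of Serpina1b and Serpina1c in the deposited scaling.
Serpina7 (chrX:139085278-139085377, minus strand): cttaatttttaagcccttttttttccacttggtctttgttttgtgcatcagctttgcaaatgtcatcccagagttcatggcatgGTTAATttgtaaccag
Serpina12 (chr12:104044444-104044543, minus strand): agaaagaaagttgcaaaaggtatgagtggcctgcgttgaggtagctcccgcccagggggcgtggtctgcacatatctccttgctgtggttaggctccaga
Serpina7 holds the same 6 letters and Serpina12 does not hold them in this window. The genes were picked for display, and windows were placed on the motif where it was found. Serpina1b, Serpina1c, Serpina7 and Serpina12 did not pass, and Serpina1a, Serpina1d and Serpina1e have no probe set of their own. Any relation of the motif to the direction of a difference was not tested.

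Motifs were searched on both strands of the 250 bases upstream of 34 of the 40 member genes with a RefSeq promoter. GTTAAT was in 5 of the 34, Serpina1b, Serpina1c, Serpina7, Serpinb8 and Serpini2, against 6.43% of all 32851 promoters. TGACNNNGC, the core of the element bound by NRF2, was in 3, Serpinb12, Serpinb6a and Serpind1, against 10.2% of all. Serpinb1a and Serpina4-ps1 were not among the 34 genes, so the search does not bear on the 2 members that passed. TTCNNNGAA, a STAT site, was in 6 against 7.02% of all, and TGANTCA, the core bound by AP-1 and related factors, which can share letters with TGACNNNGC, was in 8 against 6.75%, 6 of them among 17 clade B genes and 2 among 10 of clade A. The 34 genes had 40 promoter entries, and a gene counted when any of its entries held the motif, whereas the shares of all are per entry. These matches describe letters only.

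None of the plasma serpins that regulate clotting and fibrinolysis passed the test. Serpinc1, antithrombin, read 29866.6, 27971 and 26079.8 in the knockouts and 26284, 23663.8 and 24198.1 in the controls, with a log2 difference of 0.18 (95% interval -0.03 to 0.39, limma adjusted p = 0.428). Serpind1, heparin cofactor II, read 10565, 11158.2 and 9249 against 11649.3, 11078 and 11012.1 (-0.13, 95% interval -0.35 to 0.09, adjusted p = 0.595). Both overlapped between groups, and their intervals together span -0.35 to 0.39 log2 units.

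Serpinf2, alpha-2-antiplasmin, the plasmin inhibitor, read 11609.9, 10930.4 and 11294.2 in the knockouts and 13731.2, 11579.4 and 11403.6 in the controls. Its difference was -0.11 (95% interval -0.34 to 0.11, limma adjusted p = 0.650), with overlap. Serpina10, the protein Z-dependent inhibitor of activated factor X, read 14144.8, 8756.4 and 9452.4 against 11656.1, 11142.4 and 10079. It had knockout 3 at the top and the other knockouts at the bottom, with a difference of -0.05 that was 0.04 after median centring (adjusted p = 0.920).

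Serping1 is the C1 inhibitor, which controls complement C1 and plasma kallikrein. It read 24046.7, 19496.9 and 20086.3 in the knockouts and 20751.4, 18450.4 and 17741.3 in the controls, with knockout 3 the highest. The groups overlapped, and the difference was 0.16 (95% interval -0.09 to 0.41, limma adjusted p = 0.561), or -0.01 when arrays were scaled on the added control transcripts. Serpinf1, the pigment epithelium-derived factor, an inhibitor of blood vessel growth with no protease target, read 20877.2, 21362.9 and 19498.6 against 20908.9, 19937.5 and 17506. Its difference was 0.08 (adjusted p = 0.745) and took the opposite sign in 3 other scalings, and its groups overlapped.

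Serpinh1, also called HSP47, is a collagen chaperone of the endoplasmic reticulum and not an inhibitor. Its brighter probe set read 400.9, 454.4 and 405.5 in the knockouts and 435, 523.3 and 629.3 in the controls, with knockout 4 above control 1. Its log2 difference was -0.31 (95% interval -0.67 to 0.05, limma adjusted p = 0.424). The other Serpinh1 probe set gave -0.43 (95% interval -0.83 to -0.03, unadjusted p = 0.0397 and adjusted p = 0.317 by limma), with overlap. Markers of stellate cells and fibroblasts, which make collagen, had a median of -0.23 with 8 of 12 below the controls and 0 past the threshold (3 had an unadjusted p under 0.05). The summed signals of these markers were 12925 to 14984 in the knockouts and 13560 to 16533 in the controls, and their part in the Serpinh1 values was not tested.

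Serpini1, neuroserpin, an inhibitor of tissue plasminogen activator in brain, was dim at 92.5, 81.2 and 136.8 against 126.4, 53.9 and 55.5. The groups overlapped, and the difference was 0.39 with a wide 95% interval of -0.41 to 1.19 (limma adjusted p = 0.658). Its other 2 probe sets, too dim to test, gave -0.10 and -0.50. The 23 untested probe sets had a mean log2(signal + 16) under the filter level, which corresponds to a signal of about 79.0, and 2 were under the offset of 16 on every array. Groups overlapped for 18 of the 23, and with no filter their lowest adjusted p was 0.330. Genes represented only by such probe sets included Serpina1f, Serpina3a, Serpinb2, Serpinb5, Serpinb8 and Serpini2.

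**Figure D4:**
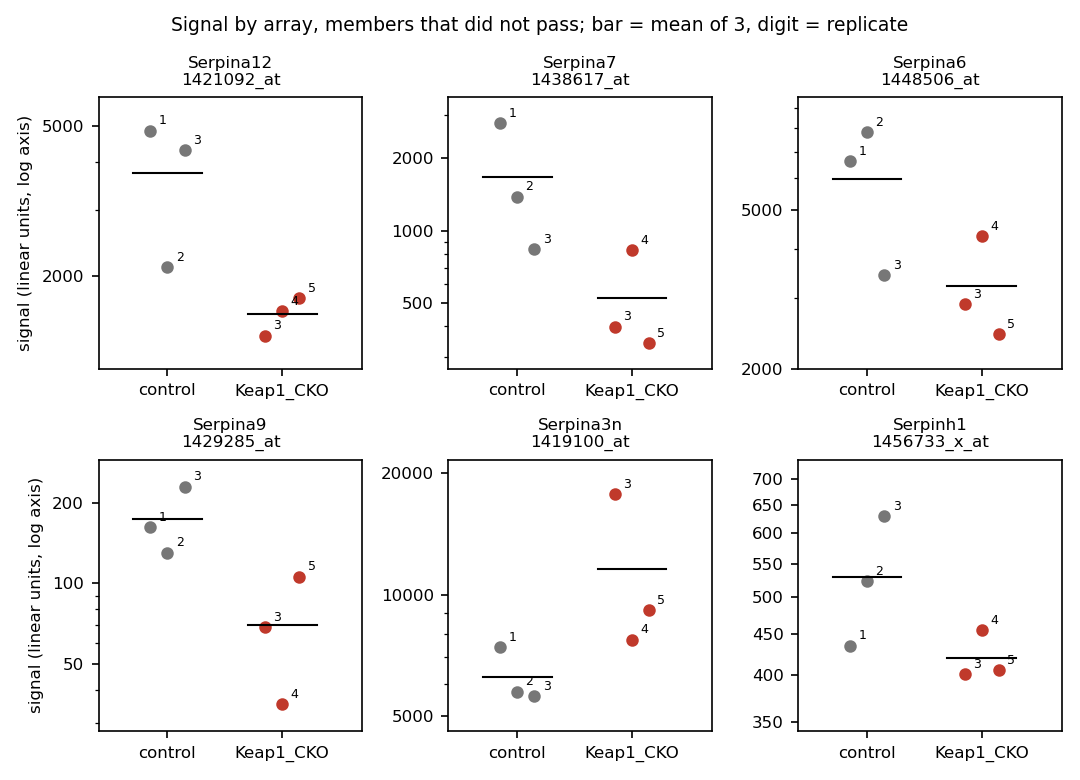
Signal of each array (linear units on a log axis) for 6 serpins that did not pass, with controls in grey, Keap1_CKO in red, digits for the replicate number and bars for the mean of 3. Serpina12, Serpina7 and Serpina9 separate the groups with every knockout below, Serpina3n with every knockout above, and Serpina6 and Serpinh1 overlap.

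Among the proteases that serpins act on, 1 passed the test. Of 31 target proteases tested, 0 rose, 1 fell and 30 did not pass, with 16 above and 15 below the controls and a median of 0.01, against -0.02 over all genes. Groups did not overlap for 10 of them, 6 higher and 4 lower, against 21.3% of all genes. By brightest probe set, 7 of the 31 genes had an unadjusted p under 0.05. The nearest share at hand, 14.4%, is over all probe sets and not over genes. The 1 that fell was Klkb1, plasma kallikrein, which releases bradykinin and is held in check by Serping1. It read 4260.3, 4447.8 and 4317.4 in the knockouts and 6401.6, 6207.4 and 5601 in the controls.

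All knockouts were below all controls for Klkb1, with little spread in either group. The log2 difference was -0.48 (SE 0.09, limma adjusted p = 0.0405). The call was lost without any 1 of the 6 arrays (adjusted p = 0.0515 to 0.169), after median centring (0.314), with no filter (0.0659) and without the variance trend (0.180), while the difference stayed between -0.64 and -0.38 in all of these and the other settings. Antithrombin's targets thrombin, F2, and factor X, F10, gave 0.04 and -0.14 (adjusted p = 0.874 and 0.624), and plasminogen, Plg, gave 0.13 (adjusted p = 0.591).

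Of 12 receptors and cofactors tested, 0 passed by limma. By brightest probe set, 4 of these genes had an unadjusted p under 0.05, against 14.4% of all probe sets. Pnpla2, 1 of the 4, read 1953.5, 1646.6 and 2261.9 in the knockouts and 1302.5, 1327.4 and 1306.1 in the controls. Its groups did not overlap (0.56, limma adjusted p = 0.0788). The receptor Lrp1, which clears serpin-protease complexes, read 4623.1, 3978.4 and 4245.2 in the knockouts and 5707.9, 4860 and 5155.2 in the controls, without overlap (-0.29, adjusted p = 0.237). Pros1, protein S, was above the controls without overlap (0.60, adjusted p = 0.139). Proz, the protein Z that works with Serpina10, gave -0.32 (adjusted p = 0.307) with overlap. These 4 genes, the ones with an unadjusted p under 0.05, were chosen after their values were seen.

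Among 28 tested inhibitors outside the family, 1 rose, 0 fell and 27 did not pass, with 17 above and 11 below the controls and a median of 0.09. Groups did not overlap for 3 that were higher and 5 that were lower, against 10.3% and 10.9% of all genes. By brightest probe set, 8 of the 28 had an unadjusted p under 0.05 by limma, against 14.4% of all probe sets. The 1 that rose was Spink1, a Kazal-type trypsin inhibitor best known from the pancreas. It read 245.1, 268.7 and 182.4 in the knockouts and 62.4, 61.6 and 105.5 in the controls, with no overlap. Its log2 difference was 1.44 (SE 0.26, limma adjusted p = 0.0338). Leaving out any 1 array other than control 3 lost the call (adjusted p = 0.0515 to 0.152), as did fitting with no filter (0.0785) or without the variance trend (0.0700). Of 6 pancreatic acinar markers tested, 4 were above and 2 below, with a median of 0.04 and 0 past the threshold (0 had an unadjusted p under 0.05).

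Angiotensinogen, Agt, is a serpin that carries another symbol and inhibits no protease. It read 12629, 13750.7 and 11554.5 in the knockouts and 11815.7, 10111.7 and 9621.4 in the controls. Knockout 5 lay just under control 1, so the groups overlapped, and the log2 difference of 0.27 did not pass (limma adjusted p = 0.313).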

How the data were processed

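The values are linear array intensity as deposited, 1 per probe set and mouse, already scaled by the authors so that the mean without the lowest and highest 2% was 500.0 on each array. Per the labels' protocols, liver RNA was amplified from an oligo(dT) primer and labelled with biotin. The software that summarised the probes, and the build, are not given in any source used here. All 56 member symbols matched RefSeq by Entrez number.

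From these, log2(signal + 16) was computed, and folds are on that scale, which understates changes of dim genes. Probe sets with a mean at or above the 40th percentile entered a two-sided test (limma 3.58.1, R 4.3.3: lmFit, then eBayes with a variance trend). P-values of all 27022 were adjusted by Benjamini-Hochberg, with a threshold of 0.05. The brightest probe set represented a gene. The steps were tested on simulated data. Between 11.9% and 16.5% of values on an array were under 16.

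The members, gene lists and named genes were chosen with earlier results of these data known. Named were Serpinb1a and Serpina4-ps1, every member past the threshold, the gene with the highest mean signal and the one with the largest difference in each clade, genes whose tested probe sets disagree in sign (there were none among the 6 genes with several tested), listed genes past the threshold, and Keap1. Alternatives covered filters, offsets of 1 and 64, scalings, variance models, array weights, probe set choice and leaving out each array. Precision is limited by the number of arrays: with 3 mice against 3 the smallest exact permutation p is 0.1. The labels give 1 tissue per array; p-values measure the spread between these samples.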

Additional observations from a re-analysis of the deposited data

How the results depend on the processing

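The log2 difference of Serpinb1a was 2.66, with its call lost, without a variance trend and with a robust fit, and 2.26 to 3.05 with an array left out. That of Serpina4-ps1 was -1.86, with its call lost, without a filter, without the trend and with a robust fit, and -2.11 to -1.49 with an array left out. Serpin probe sets past the limma threshold, 5 in the reported fit, numbered 2 with no filter, 0 without the trend (14 had an unadjusted p under 0.05), 3 with a robust fit, 2 without probe sets that can match several transcripts, and 1 to 5 with an array left out, with 2 without knockout 5, 1 without control 1 and 1 without control 3. Serpin genes, 2 in the reported fit, numbered 1 with no filter, 0 without the trend and 0 with a robust fit (10 had an unadjusted p under 0.05 in each), and 0 to 3 with an array left out, with 1 without knockout 5, 0 without control 1 and 0 without control 3 (10 and 8 unadjusted). Target proteases, receptors and cofactors, 1 in the reported fit, numbered 0 with no filter, 0 after median centring and 0 without the trend (11, 9 and 10 unadjusted), 2 with array weights, and 0 to 2 with an array left out. Other inhibitors, 1 in the reported fit, numbered 0 with no filter, 0 with a filter at the 60th percentile, where Spink1 was not tested, and 0 without the trend (8, 8 and 3 unadjusted), 2 when scaled on the added control transcripts, 2 with array weights, and 0 to 1 with an array left out. Serpinf1 took the opposite sign after quantile normalization (-0.055), after cyclic loess (-0.032) and when scaled on the added control transcripts (-0.080), as did Serping1 under that last scaling (-0.0071). Over all probe sets the calls were 410 in the reported fit, 271 with no filter, 105 without the trend and 158 to 297 with an array left out. Median centring and scaling on the added control transcripts each moved the differences of all probe sets by a shared amount. The median of all probe sets was -0.036 in the reported fit, 0.059 after median centring and -0.20 under the control transcript scaling. The reversals of Serpinf1 and Serping1 under the latter are this shared shift. Apart from it and the effects of fewer arrays or fewer probe sets, the cause of the changes listed here was not tested. Dim signals limit what can be seen of the 14 untested genes. No paired analysis was possible because the groups share only the replicate number 3.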
